A study of Mus musculus with 14 samples.

Results

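The RNA levels of 10 surface proteins by which B cells signal to and hold on to other cells were described: the costimulatory ligands Cd80, Cd86 and Icosl, the inhibitory ligand Cd274, the activation markers Cd83 and Cd69, the adhesion receptors Icam1 and Cd44, and the SLAM family receptors Slamf1 and Slamf7. They were chosen by name and found by their Ensembl IDs, 10 of the 39179 gene IDs counted, and all 10 were among the 12630 genes with enough counts to be tested. The cells were follicular B cells, which recirculate through blood and lymphoid follicles, taken from the spleen of C57BL/6 mice by magnetic separation and cultured with BAFF at 50 ng/ml. The 7 groups were wild type cells (wt) at 0h, 6h and 27h, crel-/- cells (cko) at 0h and 6h, and relb-/-crel-/- cells (dbko) at 0h and 6h, each with 2 RNA-seq libraries (n = 2). Both knockout genotypes lack c-Rel, and dbko also lacks RelB. The sources used here do not give how the knockouts were made, how old the mice were or how many mice gave a library. The labels do not say whether replicate libraries are from different animals, and the p-values then reflect no more than the spread of these libraries, which may be technical. Cells cultured without BAFF were not analysed here, so BAFF and time in culture cannot be told apart.

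A T cell needs a second signal beside its antigen receptor, and B cells give it through the B7 proteins CD80 and CD86, which bind CD28 on T cells, and through ICOS ligand, which binds ICOS. CD274, also called PD-L1, binds PD-1 and dampens the T cell. ICAM-1 holds the contact between the cells by binding the integrin LFA-1, and most SLAM receptors bind their own kind on the neighbouring cell. Many of these genes are known targets of NF-kB, the transcription factor family to which c-Rel (gene Rel) and RelB (gene Relb) belong. BAFF, a survival cytokine of mature B cells, activates NF-kB through its receptors.

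Gene counts summed to 10497802 to 11888765 per library, and levels are given as CPM, a gene's reads scaled to a common library size, for replicate 1 and then replicate 2. In wt libraries of 0h and 6h Rel lay between 621 and 683 CPM, against 40 to 111 CPM in the knockouts, while Relb lay between 115 and 164 CPM in the same wt libraries and 159 and 195 CPM in cko, against 53 to 88.4 CPM in dbko. The wt libraries of 27h, with 63.9 and 66.4 CPM, lay inside that dbko range of Relb. The dbko replicates stood further apart than others: the mean chi-square per gene of one replicate against the other was 33.23 at 0h and 38.25 at 6h, 23.74 in cko at 6h and 2.98 to 5.04 in the other groups. Summed B cell markers (11 genes, among them Ms4a1 and Cd79a) were the most abundant marker set in all libraries, at 13130 to 31775 CPM. Markers of other cells differed between groups. The macrophage and monocyte sum (16 genes) was 203 and 207 CPM before culture (0h) and 45.6 and 44.4 CPM after 6h in wt, against 306 and 177 CPM before and 328 and 111 CPM after 6h in dbko. The erythroid sum (9 genes) was 1098 and 543 CPM in dbko at 0h against 11.5 and 12.1 CPM in wt. In such bulk RNA, fewer cells of a type and less RNA per cell cannot be told apart.

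**Figure D1:**
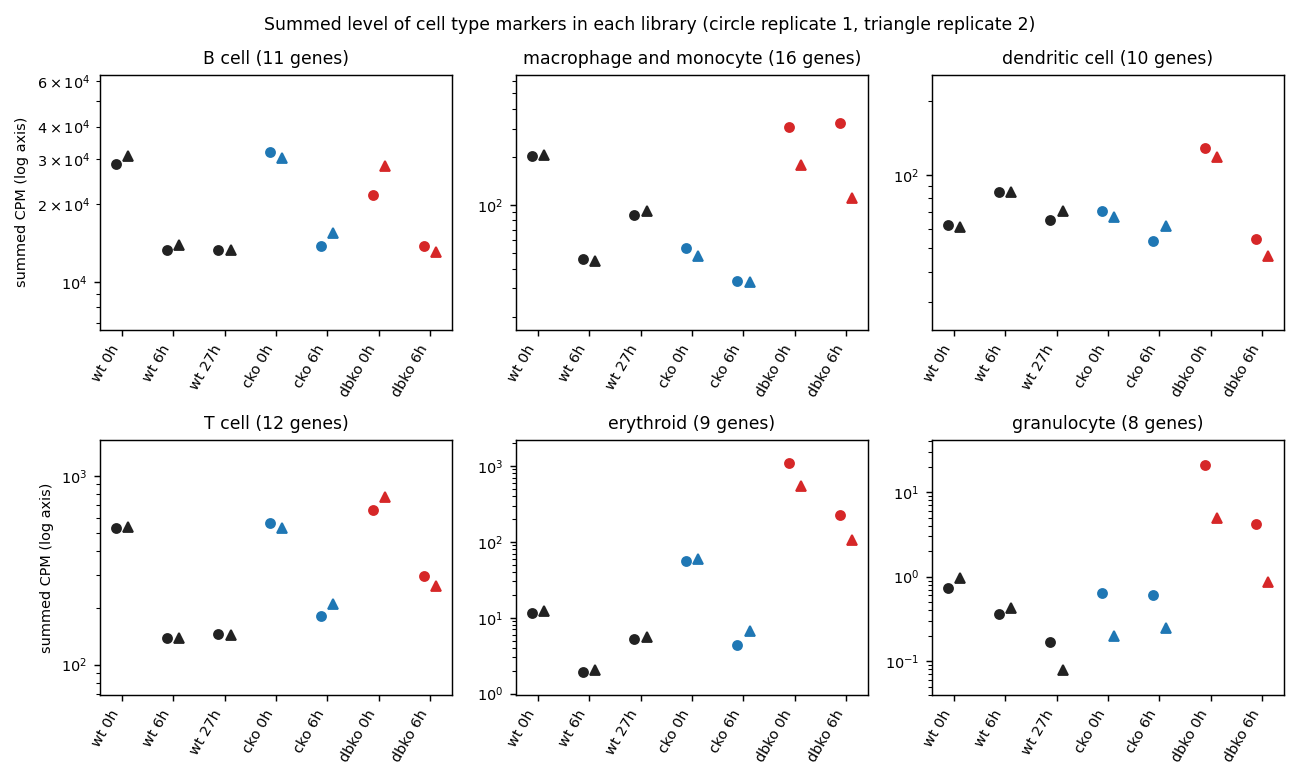
Summed level of cell type markers in each library, in CPM on a log axis, for 6 marker lists; circles are replicate 1, triangles replicate 2, and colours mark wt, cko and dbko. The macrophage and monocyte sum in dbko at 6h, 328 and 111 CPM, lay above the 45.6 and 44.4 CPM of wt at 6h, and dbko replicate 1 was the higher library.

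Per kilobase of annotated exon, which allows genes to be set side by side, Cd83 was the most abundant of the 10 in wt cells at 0h, at a mean of 1446 CPM per kb. Cd69 followed at 207 CPM per kb, Cd274 at 130 and Icosl at 75.8. Icam1, Cd44, Cd86, Slamf7 and Slamf1 lay between 23.1 and 10.1 CPM per kb, and Cd80 was the lowest at 0.66 CPM per kb. Over the 7 groups the highest group mean exceeded the lowest by 25 times for Cd69, 16.5 times for Slamf1, 10.9 times for Cd83, 8.1 times for Cd86, 7.9 times for Cd274 and 5.6 times for Cd80. The ratio was smaller for Icosl (4.2), Icam1 (2.6), Slamf7 (2.5) and Cd44 (1.4).

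**Figure D2:**
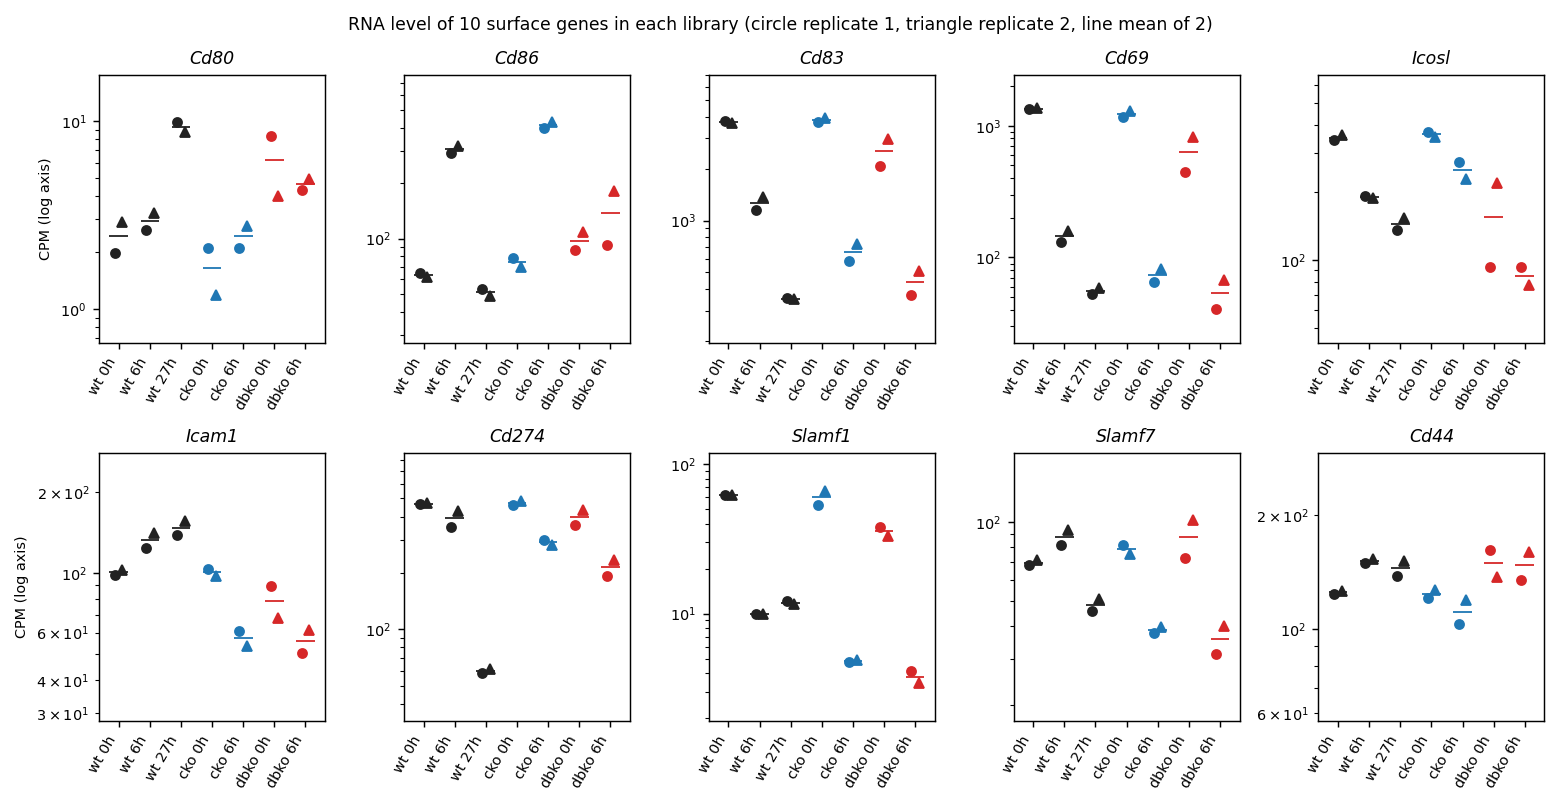
Level of each of the 10 genes in each of the 14 libraries, in CPM on a log axis, by genotype and time. Cd86 stood at 293 to 432 CPM in the wt and cko libraries at 6h, while Cd83, Cd69 and Slamf1 were lower in every 6h library than in the 0h libraries of the same genotype.

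The first comparisons asked how the genes changed in wt cells between 0h, 6h and 27h with BAFF. At 6h Cd86 rose, Icam1 rose slightly, and Cd83, Cd69, Icosl and Slamf1 fell. At 27h Cd86 was not called against 0h, Cd80 and Icam1 were higher than at 0h, and Cd83, Cd69, Icosl, Cd274, Slamf1 and Slamf7 were lower. Of the 10 genes, 2 were called higher and 4 lower at 6h against 0h, at an adjusted p under 0.05, beside 22.6% of all tested genes called higher and 23.5% called lower. At 27h against 0h the counts were 2 higher and 6 lower, beside 23.0% and 24.6% of all tested genes, with a median log2 fold change of -0.90 against 0 over all tested genes. At 27h against 6h they were 1 higher and 5 lower, beside 15.9% and 18.2%. The 3 comparisons share libraries pairwise. Between wt at 0h and 6h, the B cell sum went from 28554 and 30800 CPM to 13332 and 13985 CPM and the macrophage and monocyte sum went down as given above, with 12 of its 14 tested genes lower; their part in the results in wt was not tested.

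Among the B7 ligands, Cd86 (ENSMUSG00000022901, chromosome 16, 36603869 to 36666081, minus strand, GRCm38, as for all positions here) had 64.6 and 61.7 CPM in wt cells of 0h, rose to 293 and 319 CPM by 6h and was back at 53.1 and 48.9 CPM by 27h. Both 6h libraries lay far above the others, and the 27h libraries lay below those at 0h. The rise at 6h was 4.85-fold, a log2 fold change of 2.28 ± 0.25 (SE; edgeR, adjusted p = 3.02e-05), and the fall from 6h to 27h was of 6.00-fold (adjusted p = 3.21e-05). From 0h to 27h the difference was -0.31 ± 0.24 (adjusted p = 0.326). Cd80 (ENSMUSG00000075122, chromosome 16, 38455561 to 38496335, plus strand), the other ligand of CD28, had another timing, with 1.98 and 2.90 CPM before culture, 2.65 and 3.23 CPM by 6h and 9.85 and 8.79 CPM by 27h. Its libraries at 0h and 6h overlapped, and those at 27h lay above both. Cd80 was 3.79-fold higher at 27h than at 0h, at 1.92 ± 0.37 (adjusted p = 0.00105), and its 6h difference of 0.26 had a 95% interval from -0.59 to 1.11. These levels rest on 12 to 116 counts of Cd80 per library.

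Icosl (ENSMUSG00000000732, chromosome 10, 78069302 to 78083913, plus strand), the ICOS ligand, went from 340 and 361 CPM to 193 and 188 CPM by 6h and 136 and 154 CPM by 27h, and no library of one time overlapped another. The difference from 0h was -0.88 ± 0.29 at 6h (adjusted p = 0.0290), a call that ended without any 1 of the 4 libraries (adjusted p 0.0807 to 0.121), and -1.27 ± 0.29 at 27h (adjusted p = 0.00454). Cd274 (ENSMUSG00000016496, chromosome 19, 29367455 to 29388095, plus strand), the PD-1 ligand, changed between 6h and 27h. It had 466 and 473 CPM before culture, then 352 and 431 CPM by 6h, and 58.3 and 61.4 CPM by 27h. The 6h libraries lay a little below those at 0h, at -0.26 ± 0.14 (adjusted p = 0.137), and those at 27h far below both, with a fall of 7.84-fold from 0h (-2.97 ± 0.15, adjusted p = 4.01e-08).

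The activation markers Cd83 and Cd69 were at their highest in cells with no time in culture. Cd83 (ENSMUSG00000015396, chromosome 13, 43784775 to 43803132, plus strand), a surface protein that stabilises MHC class II and CD86 on the cell, went from 3766 and 3673 CPM before culture to 1145 and 1373 CPM by 6h and 353 and 351 CPM by 27h. Cd69 (ENSMUSG00000030156, chromosome 6, 129267325 to 129275436, minus strand), an early activation antigen that retains lymphocytes in tissue, went from 1331 and 1359 CPM to 130 and 159 CPM and then 53.3 and 59.0 CPM. In both genes every later library lay below every earlier one. From 0h to 6h Cd83 fell 2.95-fold (-1.56 ± 0.20, adjusted p = 5.43e-05) and Cd69 fell 9.31-fold (-3.22 ± 0.29, adjusted p = 8.19e-06). By 27h the falls were 10.6-fold for Cd83 (adjusted p = 1.57e-07) and 23.9-fold for Cd69 (adjusted p = 8.27e-07).

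The adhesion receptor Icam1 (ENSMUSG00000037405, chromosome 9, 21015985 to 21028817, plus strand) had 98.3 and 103 CPM in wt before culture, 124 and 141 CPM by 6h and 139 and 156 CPM by 27h. All later libraries lay above those at 0h, and those at 6h and 27h overlapped. By 6h the rise was 0.39 ± 0.14 (adjusted p = 0.0382), and by 27h it was 0.55 ± 0.14 (adjusted p = 0.00703). The 6h call ended without any 1 library (adjusted p 0.0554 to 0.232), and the 27h call without wt 0h replicate 1 or wt 27h replicate 2 (adjusted p 0.0590 to 0.0658). Cd44 (ENSMUSG00000005087, chromosome 2, 102811141 to 102901665, minus strand), the receptor of hyaluronan, was called in none of the 3 wt comparisons, at 124 and 126 CPM, 149 and 153 CPM, and 138 and 151 CPM. Its 6h libraries lay above those at 0h, at 0.27 ± 0.12 (adjusted p = 0.0836, 95% interval 0.01 to 0.53).

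The SLAM receptors differed from each other. Slamf1 (ENSMUSG00000015316, chromosome 1, 171767127 to 171801184, plus strand) fell from 62.5 and 62.2 CPM to 9.88 and 9.94 CPM by 6h and had 12.2 and 11.5 CPM by 27h. The fall was 6.29-fold by 6h (-2.65 ± 0.15, adjusted p = 1.26e-07), and from 6h to 27h the difference was 0.26 (adjusted p = 0.200). Slamf7 (ENSMUSG00000038179, chromosome 1, 171632403 to 171653035, minus strand) had 68.2 and 71.3 CPM before culture, 81.4 and 93.0 CPM by 6h and 45.5 and 50.6 CPM by 27h. Its 6h libraries were the highest and its 27h libraries the lowest. Slamf7 was called lower at 27h than at 6h (-0.86 ± 0.16, adjusted p = 0.00160) and than at 0h (-0.54 ± 0.16, adjusted p = 0.0150), the latter call ending without wt 0h replicate 1, wt 0h replicate 2 or wt 27h replicate 1 (adjusted p 0.0520 to 0.110). Annotated antisense genes share 511 exon bases with Icam1, 511 with Cd274 and 423 with Slamf7, and as the use of strand in the counting is not given, reads of the pairs cannot be told apart.

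**Figure D3:**
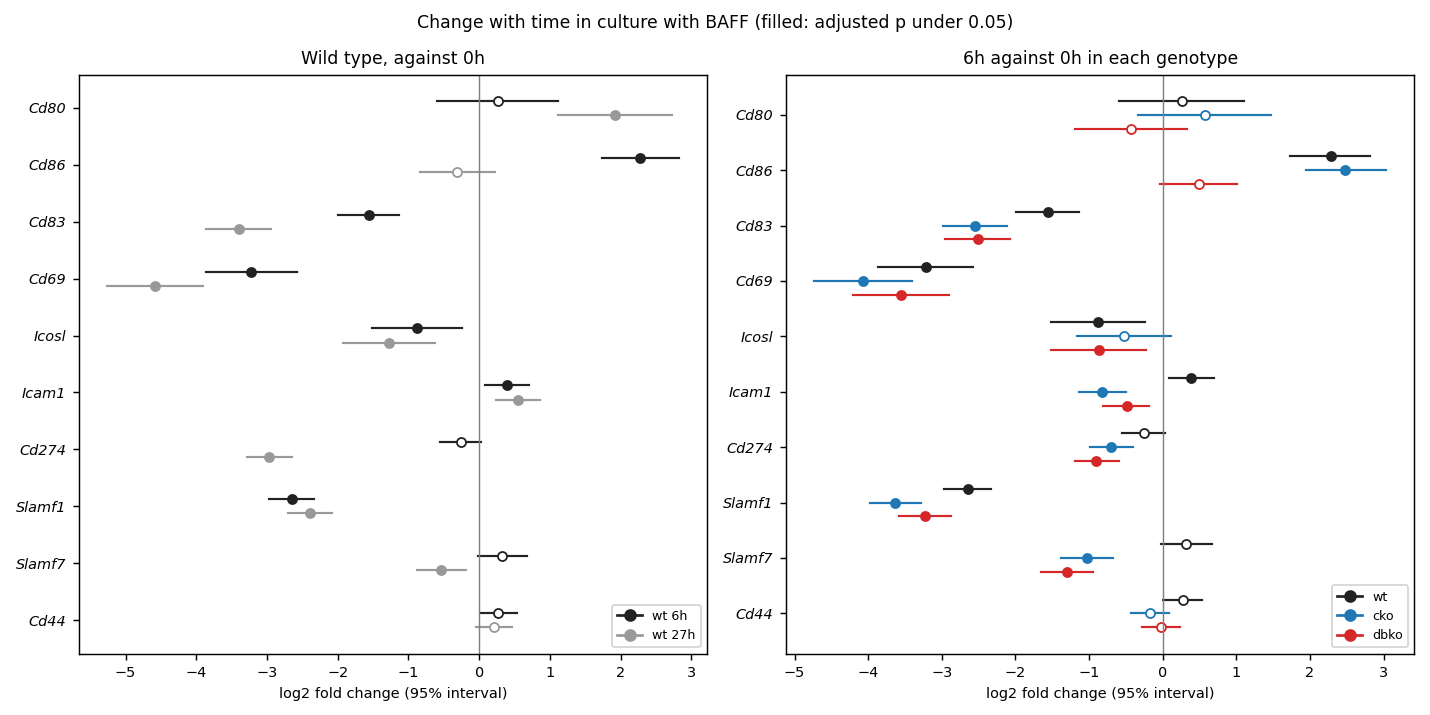
Log2 fold change with its 95% interval for each of the 10 genes between times in culture; filled points have an adjusted p under 0.05. Cd86 lies at 2.28 in wt and 2.48 in cko at 6h and at 0.49 in dbko, and Cd83, Cd69 and Slamf1 lie to the left of 0 in all comparisons of 6h or 27h with 0h.

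The next comparisons asked whether the genes differed between genotypes in cells at 0h. Between cko and wt 0 of 10 genes were called, with edgeR and with DESeq2, and 0 had an unadjusted p under 0.05, beside 0.918% of all tested genes called higher and 0.578% called lower. The log2 differences ran from -0.57 ± 0.42 for Cd80 (95% interval -1.49 to 0.35) to 0.23 ± 0.24 for Cd86 (-0.30 to 0.77), so the intervals still allow differences of that size. In a fit of the compared groups alone Cd86 was called, at 0.25 (adjusted p = 0.0275). Icam1 stood at 104 and 97.2 CPM in cko against 98.3 and 103 CPM in wt, and Slamf1 at 53.5 and 66.0 CPM against 62.5 and 62.2 CPM. In both genes the genotypes overlapped. The macrophage and monocyte sum was 53.9 and 47.7 CPM in cko at 0h, against 203 and 207 CPM in wt. The erythroid sum was 55.4 and 58.9 CPM in cko, against 11.5 and 12.1 CPM in wt. The part of these markers in the comparison at 0h was not tested.

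In dbko at 0h, 1 gene was called higher and 3 lower than in wt, beside 7.10% and 4.55% of all tested genes. Cd80 stood at 8.36 and 4.02 CPM in dbko, above both wt libraries, a difference of 1.34 ± 0.38 (adjusted p = 0.0385). Slamf1 was lower, at 38.0 and 33.0 CPM (-0.81 ± 0.13, adjusted p = 0.00194), and this call held without any 1 library. Cd69 stood at 447 and 819 CPM (-1.09 ± 0.27, adjusted p = 0.0241) and Icosl at 92.8 and 219 CPM (-1.17 ± 0.29, adjusted p = 0.0273). In each of these genes the dbko and wt libraries did not overlap, and replicate 1 of dbko was the further from wt in Cd80, Cd69 and Icosl. Without dbko replicate 1 at both times the difference was 0.71 for Cd80 (adjusted p = 0.223), -0.72 for Cd69 (adjusted p = 0.00540), -0.68 for Icosl (adjusted p = 0.00136) and -0.92 for Slamf1 (adjusted p = 0.000306). With only the compared groups in the fit, Slamf1 alone was called, and leaving out single libraries ended the Cd80 call (wt 0h replicate 1, wt 0h replicate 2 or dbko 0h replicate 1, adjusted p 0.112 to 0.386), the Cd69 call (the same 3 libraries, 0.119 to 0.150) and the Icosl call (wt 0h replicate 1 or wt 0h replicate 2, 0.118 to 0.141). Cd83 stood at 2074 and 2965 CPM against 3766 and 3673 CPM in wt (-0.56, adjusted p = 0.0774, and 0.0287 with the replicate number as a block).

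Beside these differences stood other cell types' markers. In dbko at 0h all 9 tested erythroid markers and 5 of 8 tested dendritic cell markers were higher than in wt, and the dendritic cell sum was 129 and 118 CPM against 62.4 and 61.3 CPM; 2 of 14 tested macrophage and monocyte markers were higher. No macrophage and monocyte or dendritic cell marker was at 0 in both dbko libraries at 0h, and the same held in wt at 0h. The B cell sum was 21667 and 28253 CPM in dbko at 0h, against 28554 and 30800 CPM in wt. The part of these markers in the Cd80, Cd69, Icosl and Slamf1 results was not tested. Against cko at 0h, dbko again had 1 gene higher and 3 lower, beside 6.63% and 2.39%: Cd80 (1.90 ± 0.40, adjusted p = 0.0103), Cd69 (-0.96 ± 0.27, 0.0480), Icosl (-1.21 ± 0.29, 0.0279) and Slamf1 (-0.75 ± 0.13, 0.00462). Both comparisons use the same dbko libraries. With the compared groups alone none of the 4 calls against cko remained (adjusted p 0.0557 to 0.132).

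At 6h cko and dbko were again each set against wt. In cko, which lacks c-Rel alone, Icam1, Slamf1, Slamf7 and Cd83 were lower than in wt, each by 1.92- to 2.32-fold, while Cd86, not called, was above wt in both libraries. Of the 10 genes 0 were called higher and 4 lower, beside 1.58% and 1.96% of all tested genes, with a median log2 difference of -0.70 against 0.02 over all tested genes. Icam1 stood at 60.9 and 53.5 CPM in cko against 124 and 141 CPM in wt (-1.21 ± 0.15, adjusted p = 0.000797), and Slamf7 at 37.5 and 39.5 CPM against 81.4 and 93.0 CPM (-1.18 ± 0.16, adjusted p = 0.00201). For both, each cko library lay under each wt library, and the calls held without any 1 library. Slamf1 stood at 4.75 and 4.90 CPM against 9.88 and 9.94 CPM (-1.04 ± 0.16, adjusted p = 0.00432, and 0.0567 without wt 6h replicate 2). Cd83 stood at 584 and 727 CPM against 1145 and 1373 CPM (-0.94 ± 0.19, adjusted p = 0.0186), a call that ended without any 1 of the 4 libraries (adjusted p 0.0640 to 0.223).

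The other 6 genes were not called in cko at 6h. Cd86 stood at 396 and 432 CPM, above the 293 and 319 CPM of wt, with a difference of 0.44 ± 0.23 (adjusted p = 0.360) whose 95% interval ran from -0.07 to 0.95. Cd69 stood at 65.1 and 81.5 CPM, below both wt libraries (-0.98 ± 0.28, adjusted p = 0.0795), and was called with the replicate number as a block (adjusted p = 0.0126). Cd44, at 103 and 119 CPM (-0.45 ± 0.12, adjusted p = 0.0628), and Cd274, at 301 and 283 CPM (-0.42 ± 0.14, adjusted p = 0.114), were also below both wt libraries. With DESeq2 or with no filter on low counts 7 of the 10 genes were called. In cko at 6h, 0 of 14 tested macrophage and monocyte markers and 0 of 9 erythroid markers differed from wt in edgeR, while 3 and 0 had an unadjusted p under 0.05. Their sums were 33.6 and 33.1 CPM and 4.40 and 6.70 CPM, against 45.6 and 44.4 CPM and 1.92 and 2.04 CPM in wt. The dendritic cell sum moved with Icam1 and Slamf7: it was 84.8 and 85.2 CPM after 6h in wt, above the 62.4 and 61.3 CPM of 0h, and 53.5 and 61.7 CPM after 6h in cko, below the 70.9 and 67.0 CPM of 0h. Of that sum in wt, Zbtb46 made up 2.50 and 2.42 CPM before culture and 51.6 and 50.7 CPM by 6h. Without Zbtb46 the wt sum was thus lower at 6h than at 0h. At 6h, 1 of 8 tested dendritic cell markers was called lower in cko than in wt. The part of these markers in the cko results was not tested.

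In dbko at 6h, 8 of the 10 genes were lower than in wt and 0 were higher, beside 11.5% and 15.2% of all tested genes, and the median log2 difference was -1.20 against 0.05 over all tested genes. Cd86 stood at 91.8 and 182 CPM in dbko against 293 and 319 CPM in wt, a difference of -1.16 ± 0.24 (adjusted p = 0.00477). Both dbko libraries lay below both wt libraries, and replicate 1 was much the lower. Icosl stood at 93.0 and 77.2 CPM against 193 and 188 CPM (-1.16 ± 0.29, adjusted p = 0.0152), and Cd274 at 192 and 236 CPM against 352 and 431 CPM (-0.87 ± 0.14, adjusted p = 0.000853). Thus the CD28 ligand Cd86, the ICOS ligand Icosl and the PD-1 ligand Cd274 were all lower at 6h, and Icosl had been called lower at 0h too (-1.17). Cd80, at 4.29 and 4.92 CPM against 2.65 and 3.23 CPM, was not called (0.64 ± 0.37, adjusted p = 0.215).

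The 4 genes called lower in cko at 6h were also called lower in dbko. Icam1 stood at 50.6 and 61.4 CPM (-1.24 ± 0.15, adjusted p = 0.000124), Slamf7 at 31.2 and 40.0 CPM (-1.29 ± 0.16, adjusted p = 0.000197), Slamf1 at 4.13 and 3.44 CPM (-1.39 ± 0.17, adjusted p = 0.000146) and Cd83 at 371 and 511 CPM (-1.51 ± 0.20, adjusted p = 0.000244). None of these libraries overlapped with wt. The cko and dbko comparisons share the wt libraries, and both genotypes lack c-Rel, so the shared calls are not independent. How many of all tested genes lower in cko were also lower in dbko was not counted. The 4 shared calls thus cannot be read as a trait of these genes. Cd69 was called lower in dbko too, at 40.6 and 67.0 CPM (-1.42 ± 0.28, adjusted p = 0.00399). Cd69 and Slamf1 had also been called lower than wt in dbko at 0h (-1.09 and -0.81). Cd44 stood at 135 and 160 CPM, on both sides of the 149 and 153 CPM of wt (-0.03 ± 0.12, adjusted p = 0.862).

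All 8 remained called without dbko replicate 1 at both times, with Cd86 then at -0.77 (adjusted p = 0.000177), Icam1 at -1.13 (adjusted p = 1.34e-05) and Slamf7 at -1.14 (adjusted p = 1.21e-05). The Icosl call ended without wt 6h replicate 1, wt 6h replicate 2 or dbko 6h replicate 2 (adjusted p 0.0539 to 0.0725), and the Cd86 call in a fit of the compared groups alone (adjusted p = 0.0746). At 6h all 14 tested macrophage and monocyte markers and all 9 tested erythroid markers were higher in dbko than in wt, as were 6 of 9 marginal zone and B-1 cell markers. The erythroid sum was 227 and 104 CPM against 1.92 and 2.04 CPM. The dendritic cell sum was lower in dbko, at 54.4 and 46.2 CPM against 84.8 and 85.2 CPM, and lower than its 129 and 118 CPM before culture. Most of the wt sum at 6h was the gene Zbtb46, as given above. Among the 8 tested markers of that sum, 3 were called higher than in wt and 2 lower. No macrophage and monocyte marker was at 0 in both dbko libraries at 6h, and the same held in wt at 6h. The dendritic cell marker Clec10a was at 0 in both libraries of dbko and of wt at 6h, and Batf3 in those of wt but not of dbko. The part of these markers in the 8 results was not tested.

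**Figure D4:**
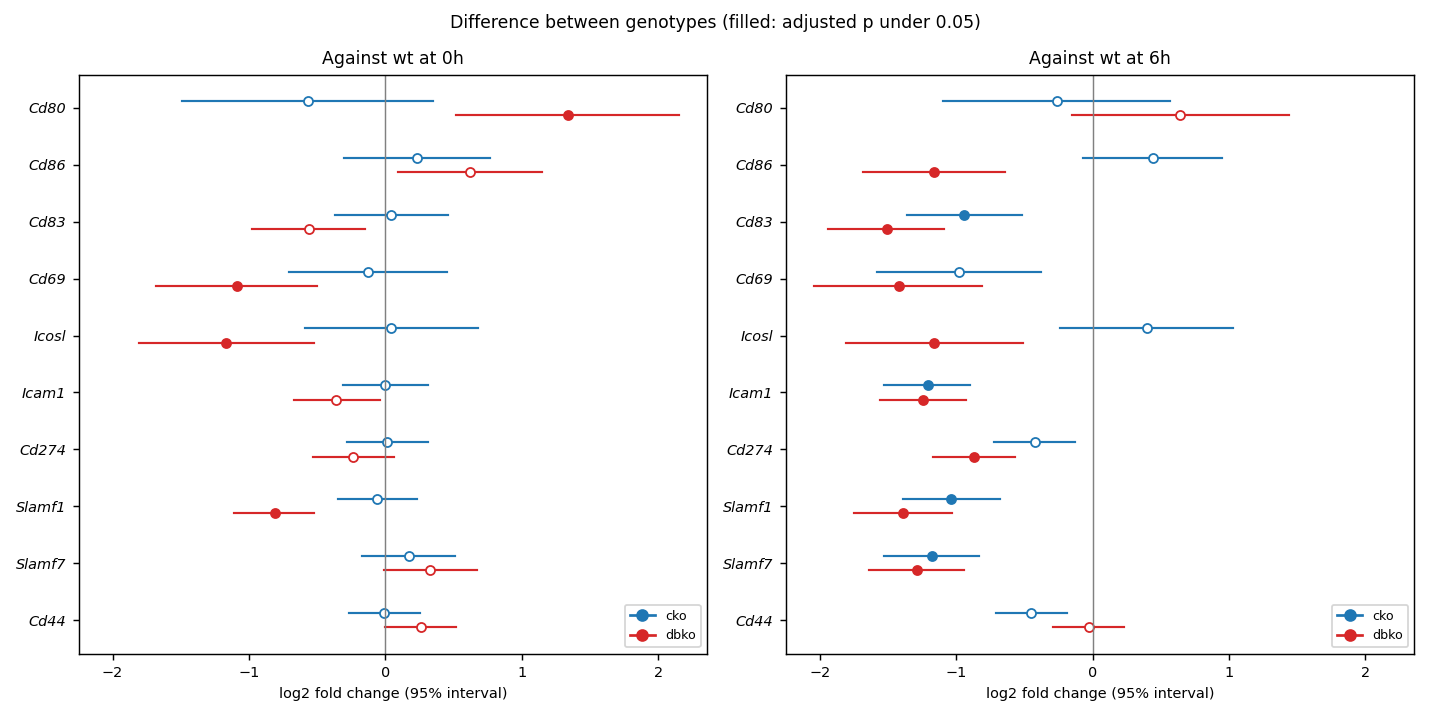
Log2 difference with its 95% interval of cko and dbko from wt at 0h (left) and 6h (right) for each gene; filled points have an adjusted p under 0.05. At 6h Icam1, Slamf1 and Slamf7 lie near -1.2 in both knockouts (-1.04 to -1.39), whereas Cd86 lies at 0.44 in cko and -1.16 in dbko.

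Set directly against cko at 6h, dbko had lower Cd86, Icosl and Cd274 and higher Cd44, so 1 of 10 genes was higher and 3 were lower, beside 8.77% and 4.66% of all tested genes. Cd86 differed by -1.60 ± 0.24 (adjusted p = 0.00200), Icosl, at 93.0 and 77.2 CPM against 273 and 229 CPM, by -1.56 ± 0.30 (adjusted p = 0.00749), Cd274 by -0.45 ± 0.14 (adjusted p = 0.0478) and Cd44 by 0.41 ± 0.12 (adjusted p = 0.0388). The Cd86 call held without any 1 library. Single libraries ended the Icosl call (cko 6h replicate 1, adjusted p = 0.0639), the Cd274 call (cko 6h replicate 1, cko 6h replicate 2 or dbko 6h replicate 1, 0.0970 to 0.282) and the Cd44 call (cko 6h replicate 1, cko 6h replicate 2 or dbko 6h replicate 2, 0.0503 to 0.206), and with the compared groups alone Icosl was the 1 gene called (Cd86 then had an adjusted p of 0.0585). For Icam1 the dbko and cko libraries overlapped, with a difference of -0.03 and a 95% interval from -0.35 to 0.29, and for Slamf7 likewise, with -0.11 and an interval from -0.46 to 0.24. Slamf1 differed by -0.35 (interval -0.74 to 0.03) and Cd83 by -0.57 ± 0.19 (adjusted p = 0.0701, and 0.0262 with the replicate number as a block). All 14 tested macrophage and monocyte markers were higher in dbko here too.

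The change from 0h to 6h was then set out within each knockout. In cko, 1 gene rose and 6 fell, beside 21.8% and 20.1% of all tested genes. Cd86 rose 5.58-fold (2.48 ± 0.25, adjusted p = 1.83e-05), from 78.3 and 70.1 CPM. Cd83 (-2.55), Cd69 (-4.07) and Slamf1 (-3.63) fell, and so did Icam1 (-0.82 ± 0.15, adjusted p = 0.000734), Slamf7 (-1.03 ± 0.16, adjusted p = 0.000311) and Cd274 (-0.70 ± 0.14, adjusted p = 0.00140). Thus Icam1, which was called higher at 6h in wt, was called lower at 6h in cko. In dbko 0 genes rose and 7 fell, beside 19.3% and 20.3%. Cd86, from 86.1 and 108 CPM to 91.8 and 182 CPM, had overlapping libraries and a change of 0.49 ± 0.24 (adjusted p = 0.120, and 0.000326 without dbko 6h replicate 1). The dbko replicates of both times deviated together (r = 0.48 across genes), Cd86 was higher at 6h under each replicate number, and with a replicate block within each genotype it was called, at 0.43 (adjusted p = 0.0316). The 7 that fell were Cd83 (-2.51), Cd69 (-3.56), Slamf1 (-3.23), Slamf7 (-1.30), Cd274 (-0.90), Icosl (-0.87) and Icam1 (-0.49). The Icosl fall (adjusted p = 0.0358) was lost without dbko 0h replicate 2 or dbko 6h replicate 2 (0.136 to 0.543), and the Icam1 fall (adjusted p = 0.0174) without dbko 0h replicate 1 or dbko 6h replicate 1 (0.101 to 0.147); neither was called with the compared groups alone.

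Whether these 6h responses differed between genotypes was tested as a difference of differences. Between cko and wt, 0 genes were called higher and 3 lower, beside 0.554% and 1.15% of all tested genes. They were Icam1 (-1.21 ± 0.20, adjusted p = 0.0155), Slamf7 (-1.35 ± 0.23, adjusted p = 0.0155) and Slamf1 (-0.97 ± 0.21, adjusted p = 0.0405). Leaving out 1 of the 8 libraries ended the Icam1 and Slamf7 calls in 6 cases each, all but wt 6h replicate 1 and cko 6h replicate 1 (adjusted p 0.0710 to 0.105 and 0.0624 to 0.104), and the Slamf1 call in all 8 (0.0590 to 0.189). With the replicate number as a block, Slamf1 had an adjusted p of 0.0505 and Cd83 (-0.99 ± 0.27, adjusted p = 0.0935) one of 0.0456. The response of Cd86 differed by 0.20 ± 0.34 (adjusted p = 0.830). From 0h to 6h the macrophage and monocyte sum went from 53.9 and 47.7 CPM to 33.6 and 33.1 CPM in cko. In wt that sum went from 203 and 207 CPM to 45.6 and 44.4 CPM. The part of this difference in the cko responses was not tested.

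Between dbko and wt, 0 responses were called higher and 5 lower, beside 6.90% and 6.94%. The Cd86 response differed by -1.78 ± 0.34 (adjusted p = 0.00724), and that of Slamf7 differed by -1.62 ± 0.23 (adjusted p = 0.00120); both calls held without any 1 library, and without dbko replicate 1 at both times the values were -1.54 and -1.69. Cd83 (-0.95 ± 0.27, adjusted p = 0.0365), Icam1 (-0.89 ± 0.20, 0.0145) and Cd274 (-0.64 ± 0.19, 0.0451) were also called, but not in a fit of the compared groups alone (0.0633 to 0.131). Leaving out 1 library ended the Cd83 and Cd274 calls in 6 of 8 cases each, all but dbko 0h replicate 1 and dbko 6h replicate 2 (0.0650 to 0.154 and 0.0529 to 0.212), and the Icam1 call without wt 0h replicate 1, wt 0h replicate 2 or wt 6h replicate 2 (0.0540 to 0.0755). Icosl, Cd69 and Slamf1, called lower in dbko than in wt at both 0h and 6h, had responses not called different from wt. These differed by 0.00 for Icosl (adjusted p = 0.999), -0.34 for Cd69 (0.606) and -0.57 for Slamf1 (0.0951). With single libraries left out, the Icosl value ran from -0.51 to 0.75, and the Icosl response was called only without dbko 0h replicate 2. Between dbko and cko, 0 responses were called higher and 1 lower, beside 0.586% and 0.348%: Cd86, at -1.99 ± 0.34 (adjusted p = 0.0204). This call ended without any 1 of the 4 cko libraries (adjusted p 0.0884 to 0.136) and with the compared groups alone (0.214). At 6h dbko replicate 1 had higher sums than replicate 2 of macrophage and monocyte markers (328 against 111 CPM) and erythroid markers (227 against 104 CPM). The granulocyte sum was higher in it too (4.21 against 0.86 CPM). Cd86 stood at 91.8 CPM in replicate 1 and 182 CPM in replicate 2. Cd80, Cd83, Cd69, Icam1, Cd274, Slamf7 and Cd44 were lower in replicate 1 too, while Icosl and Slamf1 were higher in it. The part of these markers in the responses was not tested.

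Icam1, Slamf1 and Slamf7 are the genes whose 6h response was called lower in cko, and the sequences before their RefSeq start sites (GRCm38.p6, 5′ to 3′ on the gene's strand, annotated exon bases left out) are shown to set those results beside the promoters. Capitals mark matches to 2 searched motifs, the NF-kB consensus with its first base left free and the AP-1 site TGANTCA, on both strands.
Icam1, chr9:21015690-21015939, plus strand: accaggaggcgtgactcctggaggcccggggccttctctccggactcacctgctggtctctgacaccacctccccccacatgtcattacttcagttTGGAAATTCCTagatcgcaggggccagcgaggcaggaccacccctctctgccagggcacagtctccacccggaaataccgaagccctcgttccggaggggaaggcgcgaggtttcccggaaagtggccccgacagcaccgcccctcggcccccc
Slamf1, chr1:171766882-171767126, plus strand: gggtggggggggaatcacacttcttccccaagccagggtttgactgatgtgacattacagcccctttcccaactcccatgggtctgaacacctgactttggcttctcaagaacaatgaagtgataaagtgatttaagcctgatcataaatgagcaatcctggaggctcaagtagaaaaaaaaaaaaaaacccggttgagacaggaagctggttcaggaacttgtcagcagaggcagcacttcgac
Slamf7, chr1:171649008-171649249, minus strand: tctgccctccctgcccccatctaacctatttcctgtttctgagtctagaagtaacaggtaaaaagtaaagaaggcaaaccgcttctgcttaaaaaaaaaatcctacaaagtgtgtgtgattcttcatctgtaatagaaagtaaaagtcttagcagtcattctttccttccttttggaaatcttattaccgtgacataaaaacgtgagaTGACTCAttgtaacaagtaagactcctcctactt
In the Icam1 window 2 overlapping matches to the looser NF-kB form, TGGAAATTCC and GGAAATTCCT, lay 154 to 145 and 153 to 144 bases before the start. The Slamf7 window, which lies inside the longer annotated gene, held the AP-1 match TGACTCA 42 to 36 bases before the start, and no match was found in the Slamf1 window. RefSeq windows were matched for 7 of the 10 genes, all but Cd86, Cd83 and Cd69. Of these 7, 0 held the full NF-kB consensus, 1 the looser form and 2 the AP-1 site, the other being Cd80 with TGATTCA 42 to 36 bases before its start. Over all 32817 promoter windows of 250 bases, 3.90% held the consensus, 11.3% the looser form and 6.75% the AP-1 site. A match is a description of letters and not of a bound site.

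Related genes give the setting of these results, and their counts are to be read beside the shares of all tested genes given above. Of 13 tested genes of other costimulatory and coinhibitory molecules, 3 were higher and 4 lower in wt at 6h, with the inhibitory ligand Vsir (VISTA) up by 1.53 ± 0.22 (adjusted p = 0.000221) and Lgals9 down at -1.16. Vsir was lower in cko than in wt at 6h, with a difference of -2.14 ± 0.23 (adjusted p = 0.000509), and the dbko difference was -2.41 ± 0.23 (adjusted p = 4.78e-05). Against wt at 6h, this list had 1 higher and 1 lower in cko and 3 higher and 2 lower in dbko, with medians of -0.05 and 0.45. Of 7 tested genes of other SLAM family members, 0 were higher and 4 lower in wt at 6h, among them Cd48, a ligand of CD244 (-0.73), and Cd84 (-1.0). Against wt at 6h, 1 was higher in cko and 5 in dbko, and 0 were lower in either. Over all tested genes, 1.58% were higher and 1.96% lower in cko, and 15.2% and 11.5% in dbko. Slamf6 stood at 0.87 ± 0.20 in cko (adjusted p = 0.0364) and 0.78 ± 0.20 in dbko (adjusted p = 0.0149). Among the 5 in dbko were also Cd244a (2.24), Slamf8 (3.95) and Slamf9 (2.50). Macrophage and monocyte markers were higher in dbko at 6h too, as given above, and their part in these calls was not tested. Slamf6 was also higher than wt at 0h, at 1.12 in cko (adjusted p = 0.0175) and 0.98 in dbko (adjusted p = 0.0083). Its 6h response was not called different from that of wt in cko (-0.25) or in dbko (-0.20). Slamf1 and Slamf7 went the other way at 6h, at -1.04 and -1.18 in cko, and neither was called in cko at 0h.

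Of 14 other adhesion genes and partners, 1 was higher and 10 lower in wt at 6h, among them Cd47 (-0.89) and the integrin chain Itga4 (-1.29). In cko at 6h 0 of the 14 differed from wt in edgeR and 2 had an unadjusted p under 0.05, and in dbko 7 were higher and 0 lower, among them Icam2 (0.57 ± 0.12, adjusted p = 0.00391) and the myeloid integrin chain Itgam (2.37 ± 0.53, adjusted p = 0.00785). Of 16 other activation surface genes, 4 were higher and 6 lower in wt at 6h, with Il2ra, the inducible chain of the IL-2 receptor (4.77 ± 0.53, adjusted p = 7.54e-05), and Tfrc, the transferrin receptor (1.22 ± 0.13, adjusted p = 1.69e-05), among the higher. Against wt at 6h, 0 were higher and 4 lower in cko, and 2 were higher and 11 lower in dbko, with medians of -0.60 and -0.95. Fas, the death receptor, stood at -1.16 ± 0.26 in cko (adjusted p = 0.0288) and -1.97 ± 0.27 in dbko (adjusted p = 0.000379), and Tfrc at -0.70 ± 0.13 in cko (adjusted p = 0.0111).

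Over the 14 libraries, which share their groups and times, some of the 10 genes had like patterns of log2 CPM. Pearson's r was 0.98 between Cd83 and Cd69, 0.94 between Cd69 and Slamf1, 0.88 between Cd83 and Slamf1 and 0.82 between Cd83 and Cd274. The lowest values of the 45 pairs were -0.75, for Cd80 with Cd274 and with Icosl. Cd86 had no r above 0.29 with another of the 10. Among 8496 genes with a mean log2 CPM of at least 3, the most like Cd83 was Per1 (r = 0.993), the most like Cd69 were Sde2 (0.992) and Ier5 (0.991), and the most like Cd274 was Nr4a3 (0.973). Cyth1 (0.958) was the nearest to Cd86, Ttll12 (0.955) to Cd80, Zfp608 (0.945) to Icosl, Igkv12-46 (0.968) to Slamf1, Nampt (0.919) to Slamf7 and Vars2 (0.913) to Icam1. For Cd44, the least variable of the 10, the highest r was 0.784, with Rrp15.

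In the order of group means, several neighbours did not differ beyond their libraries' spread. For Cd83, Cd69, Cd274, Slamf1 and Icosl the highest groups were wt and cko at 0h, whose libraries overlapped for Cd83, Cd274, Slamf1 and Icosl. The lowest group was dbko at 6h for Cd69, Icosl, Icam1, Slamf1 and Slamf7, overlapping with cko at 6h for Icam1 and Slamf7 and with wt at 27h for Cd69. Wt at 27h was the lowest group for Cd86, Cd83 and Cd274 and the highest for Cd80 and Icam1. Cd86 was highest in cko at 6h, followed by wt at 6h with no overlap, and Cd44 was highest in wt at 6h and lowest in cko at 6h.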

How the data were processed

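The 10 genes and the related lists were chosen with earlier results of these data known. Per the labels' protocols, RNA was reverse transcribed from poly-dT and made into TruSeq libraries, and the submitters' processing notes name CASAVA 1.8.2. The sources used here do not name an aligner, a counter, a genome build or annotation, or whether strand was used. The deposited values are raw counts of reads per Ensembl gene ID, 1 table per library, with no normalization by the authors. Tallies outside genes were left out: reads in no feature (5.21 to 11.46% per library), reads with several alignments (38.77 to 49.85%) and ambiguous reads (0.41 to 0.49%). Symbols and positions came from GENCODE M21 on GRCm38 (37607 of 39179 IDs, 99.54% of counts), which may not be the authors' build.

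Counts were scaled by TMM and fitted in edgeR 4.0.16 (R 4.3.3, limma 3.58.1) with filterByExpr by group, a robust quasi-likelihood fit of 1 mean per group over all 14 libraries (12630 genes, 7 residual degrees of freedom, common biological coefficient of variation 0.144) and two-sided tests. Benjamini-Hochberg adjustment ran over all genes tested, with calls at an adjusted p under 0.05. SE is the log2 fold change over the square root of F. The genes named are the 10, Rel and Relb, called members of the related lists with the smallest adjusted p (up to 4 a comparison), and the genes of highest Pearson r with each of the 10. Replicate 1 of each group ran in sequencing lane 7 and replicate 2 in lane 8 per the labels, so lane cannot be split within a group. Same-numbered libraries deviated together (correlation over 0.1 across genes) in 4 of 21 pairs of groups, with a range of -0.17 to 0.48, the highest for dbko at 0h and 6h. Alternatives were DESeq2 size factors, no count filter, DESeq2 1.42.0, a replicate block, a replicate block within each genotype, the compared groups alone and leaving out libraries. Promoter windows are RefSeq's. Python 3.11.15, NumPy 2.4.6, pandas 2.3.3, SciPy 1.17.1 and Matplotlib 3.10.9 were used.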

Additional observations from a re-analysis of the deposited data

Results flagged for a closer look

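The 6h response of 6 of the 10 genes differed between genotypes by the test of the difference itself. Relative to wt, the response in cko was lower by a log2 difference of -1.21 for Icam1, -0.97 for Slamf1 and -1.35 for Slamf7. In dbko the difference from wt was -1.78 for Cd86, -0.95 for Cd83, -0.89 for Icam1, -0.64 for Cd274 and -1.62 for Slamf7. Between dbko and cko it was -1.99 for Cd86. Only the calls of Cd86 and Slamf7 for dbko against wt held without any 1 library. No group had the 4 or more libraries needed to look for a library far from the others.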

How the results depend on the processing

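Of 140 values, the 10 genes in 14 comparisons, 67 were called, and 41 of these held without any 1 library. Under DESeq2 size factors in edgeR no call changed. Of 820 values with libraries left out 3 changed sign with the gene called in at least 1 of the fits compared, all for Icosl. Without dbko replicate 1 or dbko replicate 2 at both times its log2 change was -1.51 and 0.01 for 6h against 0h in dbko, -0.64 and 0.88 for the response of dbko against wt, and -0.95 and 0.53 for that of dbko against cko. With all libraries the Icosl response of dbko against wt was 0.00, so its change of sign started from no clear direction. A further 27 changed sign with the gene called in neither fit, among them the change in dbko of Cd86 (0.49 to -0.08 without dbko 6h replicate 2) and Cd80 (-0.43 to 0.18 without dbko 0h replicate 1) and the response of Cd69 in dbko against wt (-0.34 to 0.17 without dbko 0h replicate 2). Of 840 values under the other settings 6 changed sign, 0 of them of a called gene. The number of the 10 genes called moved by over 1.5 times as follows, and the cause was not tested. With the compared groups alone it went from 0 to 1 for cko against wt at 0h, 4 to 1 for dbko against wt at 0h, 4 to 0 for dbko against cko at 0h, 4 to 1 for dbko against cko at 6h, and for the responses 3 to 6 (cko against wt), 5 to 2 (dbko against wt) and 1 to 0 (dbko against cko). For cko against wt at 6h it went from 4 to 7 with no filter on low counts and to 7 with DESeq2, and for the response of cko against wt from 3 to 5 with no filter and to 5 with a replicate block within each genotype. Leaving out libraries (a group's 1 remaining library then takes the spread of the other groups) gave 1 to 8 for dbko against wt at 0h, 0 to 7 for dbko against cko at 0h, 2 to 3 for cko against wt at 6h, 1 to 5 for dbko against cko at 6h, and 0 to 2, 2 to 8 and 0 to 3 for the responses of cko against wt, dbko against wt and dbko against cko.

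With the replicate number, and so the lane, as a replicate block, the counts were 6, 8 and 6 in the wt comparisons, 7 and 7 for the changes in cko and dbko, 0, 5 and 5 at 0h, 5, 8 and 5 at 6h, and 3, 5 and 1 for the responses. The block changed 6 of 140 calls, 5 gained and 1 lost: Cd83 for dbko against wt at 0h (adjusted p = 0.0287), dbko against cko at 0h (0.0234) and at 6h (0.0262) and the response of cko against wt (0.0456), Cd69 for cko against wt at 6h (0.0126) and, lost, Slamf1 in that response (0.0505). The block within each genotype gained 11 calls and lost 0: Cd274 (adjusted p = 0.0452) and Slamf7 (0.0167) for wt at 6h against 0h, Cd86 for dbko at 6h against 0h (0.0316), Cd83 for dbko against wt at 0h (0.00172), Cd83 (0.00216) and Cd274 (0.0430) for dbko against cko at 0h, Cd69 for cko against wt at 6h (0.00184), Cd83 (0.00327) and Cd69 (0.00177) for dbko against cko at 6h, and Cd83 (0.00844) and Cd69 (0.0110) for the response of cko against wt. With 2 libraries a group and 12 to 116 counts, a change in Cd80 is the hardest of the 10 to detect.

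The counts over all tested genes, against which the 10 are read, also moved by over 1.5 times. With the compared groups alone they went from 4309 to 7531 (wt at 27h against 6h), 5004 to 1323 (dbko at 6h against 0h), 189 to 2660 (cko against wt at 0h), 1472 to 416 and 1140 to 545 (dbko against wt and cko at 0h), 3370 to 1075 and 1697 to 190 (the same at 6h), and for the responses 215 to 1292 (cko against wt), 1749 to 650 (dbko against wt) and 118 to 1 (dbko against cko). With no filter they became 648, 2361 and 2124 at 0h (cko against wt, dbko against wt, dbko against cko), 1030 for cko against wt at 6h, and 654 and 576 for the responses of cko against wt and dbko against cko. DESeq2 gave 387 for cko against wt at 0h and 451 and 244 for those 2 responses. The block within each genotype gave 344, 3046 and 2843 at 0h, 2996 for dbko against cko at 6h, and 588, 2685 and 329 for the responses of cko against wt, dbko against wt and dbko against cko. Leaving out libraries gave as few as 38 and as many as 48 for cko against wt at 0h, 2100 to 2345 for wt at 27h against 6h, 445 to 4717 and 227 to 4528 for dbko at 0h, 70 to 434 for cko against wt at 6h, 1296 to 5645 and 559 to 4464 for dbko at 6h, and 9 to 409, 595 to 4054 and 12 to 2080 for the responses in the same order.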
